A study of Mus musculus with 10 samples.

Results

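ABC (ATP-binding cassette) transporter genes were taken as every gene of the count table whose symbol starts with Abca, Abcb, Abcc, Abcd, Abce, Abcf or Abcg followed by a digit. This gave 50 of 24015 genes, with 16 in the Abca subfamily, 10 in Abcb, 10 in Abcc, 4 in Abcd, 1 in Abce, 3 in Abcf and 6 in Abcg. The family was selected on the read counts of Abcc3, which separated MI-2-2 from EPZ5676. That difference and the other EPZ5676 and MI-2-2 values of Abcc3 are therefore described without a test, and Abcc3 is left out of the counts of family members. Superfamily genes that carry other symbols, such as Tap1, Tap2 and Cftr, were not included.

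RNA sequencing was performed on MAF9 cells, C57BL/6 bone marrow cells of the mouse that carry the transduced MLL-AF9 fusion oncogene, grown in IMDM medium with 15% fetal bovine serum and interleukin-3 at 10 ng/ml. Cells were kept for 4 days with DMSO or with an inhibitor at its IC50, for which the labels give no concentration. The inhibitors were MM-401 (label MM401), which blocks the binding of WDR5 to MLL1, EPZ5676 (label EPZ) against the histone methyltransferase DOT1L, MI-2-2 (label MI) against MENIN, and iBET. Each of the 5 conditions had 2 libraries, described as biological duplicates, and MLL-AF9 was present in all of them. The sources used here do not say whether duplicates came from separate transductions or only from separate cultures, so p-values measure the spread between these libraries.

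ABC proteins bind and hydrolyse ATP on paired nucleotide-binding domains. Most use this to move lipids, peptides, metabolites or drugs across a membrane, while the ABCE and ABCF proteins have no membrane domain and work on ribosomes. In blood cells the family is known for multidrug efflux in leukemia (ABCB1, ABCC1 and ABCG2), for ABCG2-dependent dye efflux of stem cells, and for cholesterol efflux through ABCA1 and ABCG1, which restrains the growth of myeloid progenitors.

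Libraries held 20394762 to 29473127 counted reads, of which ABC genes took 0.263% to 0.359%. Values are given as normalized CPM, the usual library-size scaling of counts with TMM factors, where 1 read was worth 0.0365 to 0.0485. DMSO replicate 2 stood apart from the other 9 libraries. It held 3630 reads of 4 Y-linked genes against 0 to 2 elsewhere, and its lymphoid markers (Cd3e, Cd8a, Ms4a1 and Ncr1 at 0 in all libraries) summed to 69.3 normalized CPM against 4.55 in DMSO replicate 1, of which the cytotoxic granule gene Nkg7 alone gave 65.7 and 1.52. The DMSO libraries were more than 2-fold apart in 16.3% of genes that averaged 1 normalized CPM or more, compared with 1.59% to 4.53% within each inhibitor. Among ABC genes this held for 7 of 27 in DMSO (Abcb9, Abcc2, Abcd2, Abcd4, Abcg2, Abcg3 and Abcg4), for Abca8b and Abcc8 in MI-2-2, and for none within the other 3 conditions. Comparisons with DMSO are therefore given with and without this library.

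All 12 markers that define MLL-AF9 myeloid progenitors were found, although Flt3 did not exceed 3.21 and Cd34 2.35 normalized CPM. Their sums were 10803 and 14211 in DMSO and 11707 and 12203 with MM-401. They were 6059 and 7203 with EPZ5676, 6173 and 6271 with MI-2-2, and 7723 and 6847 with iBET. Granule enzyme genes made up most of the sums, with Elane, Ctsg and Prtn3 at 4194, 2640 and 1941 in DMSO replicate 1. The sums therefore do not describe all 12 markers. Kit was at 45.9 and 180 in DMSO, 139 and 111 with EPZ5676, and 82.6 and 82.9 with MI-2-2. With iBET, Elane was at 747 and 376 (4194 and 4007 in DMSO), and Ctsg at 3593 and 3444 (2640 and 1226 in DMSO). Meis1 was at 36.4 and 89.9 in DMSO against 0.650 to 1.79 with EPZ5676 or MI-2-2. Ptprc, Fcgr3 and Itgam were higher with these 2 inhibitors than in DMSO. Mpo was at 386 and 4816 in the DMSO libraries. Markers of mature myeloid cells also differed between conditions. Neutrophil granule markers (11 of 12 found, none at 0 throughout) summed to 3542 and 645 normalized CPM in DMSO, 4495 and 5881 with MM-401, 49518 and 67840 with EPZ5676, 45069 and 46113 with MI-2-2, and 1144 and 488 with iBET. Macrophage markers (12 of 13 found) summed to 60 to 92.2 in DMSO, 398 to 537 with EPZ5676, 426 to 835 with MI-2-2, 112 to 127 with MM-401 and 74.3 to 97.2 with iBET. Mast cell and basophil markers summed to 23.4 to 54.4 outside DMSO replicate 2 and to 133 in it, with the defining markers Cma1, Tpsb2, Tpsab1, Fcer1a and Prss34 at 0. Erythroid and megakaryocyte markers (hemoglobins at 0) stayed between 1.38 and 10.1, and stromal markers (Col1a2, Col3a1, Lum and Dcn at 0) between 6.85 and 45.0. The part of these shifts in the ABC gene results was not tested, and in bulk RNA fewer cells of a type and less RNA per cell cannot be told apart.

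Abcc3 encodes MRP3, an exporter of organic anions such as glucuronide conjugates and bile salts. It was counted at 51 and 29 reads in the DMSO libraries, 56 and 59 with MM-401, 123 and 132 with iBET, 709 and 580 with EPZ5676, and 3687 and 3940 with MI-2-2. In normalized CPM this was 1.99 and 1.39, 2.37 and 2.48, 5.43 and 5.05, 34.4 and 27.3, and 159.8 and 143.9 in the same order. No condition overlapped the next, and MI-2-2 was above EPZ5676 in every library. The mean with MI-2-2 was 4.92-fold that with EPZ5676, a log2 difference of 2.30 with a standard error (SE) of 0.181, and relative to DMSO the log2 differences were 6.48 for MI-2-2 and 4.18 for EPZ5676. Without DMSO replicate 2 they were 6.29 and 3.98. Per kilobase of exon, Abcc3 stood at rank 27 of the family in DMSO with 0.296 normalized CPM, at rank 20 with EPZ5676 with 5.41, and at rank 7 with MI-2-2 with 26.6.

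Abcc3 also rose with iBET, a contrast on which the family was not chosen. The increase over DMSO was 3.08-fold (log2 fold change 1.62, SE 0.205, edgeR FDR = 0.00493), where FDR is the Benjamini-Hochberg adjusted p of edgeR's quasi-likelihood test over 12971 genes, with a threshold of 0.05. Both iBET libraries were above both DMSO libraries, and without DMSO replicate 2 the log2 fold change was 1.40 (edgeR FDR = 0.00774). It did not pass when the 4 libraries were fitted alone. Against MM-401 the increase was 2.16-fold (log2 1.11, SE 0.198, edgeR FDR = 0.0132) and was lost without any 1 of the 4 libraries compared. MM-401 itself was 1.42-fold above DMSO and missed the threshold (edgeR FDR = 0.441).

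**Figure D1:**
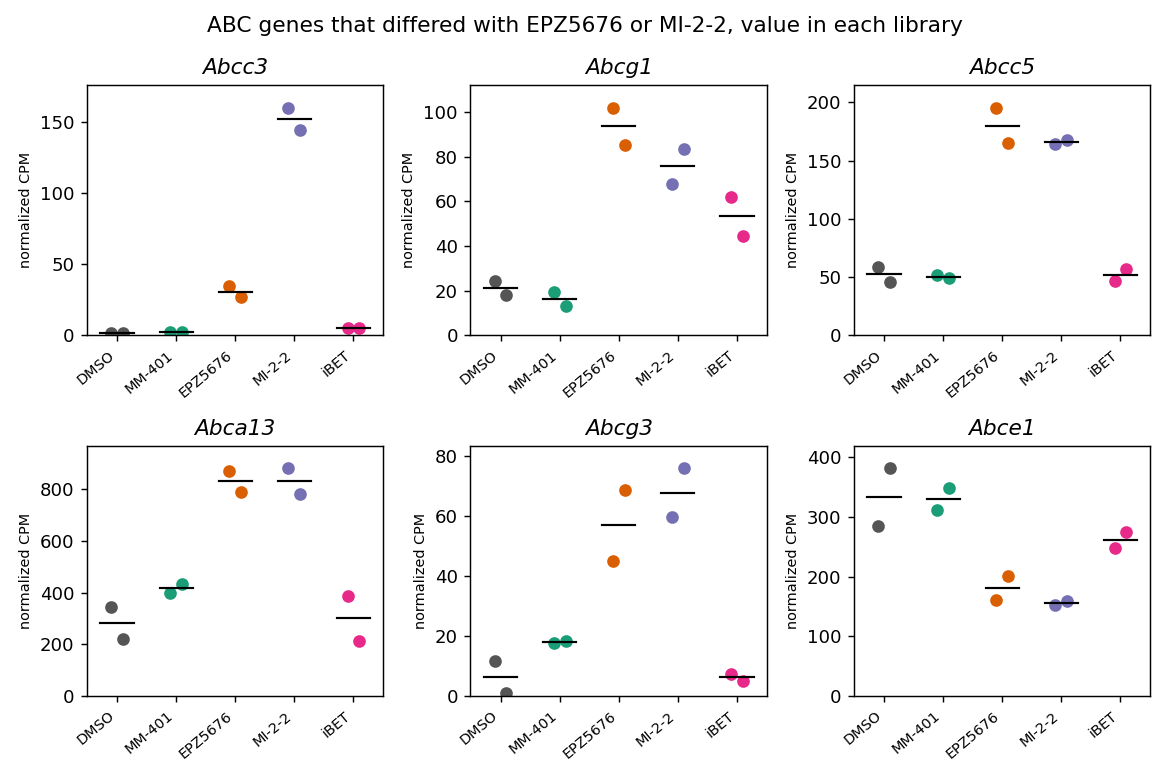
Normalized CPM (linear axes from 0) of Abcc3, Abcg1, Abcc5, Abca13, Abcg3 and Abce1 in each library, by condition; points are libraries and bars are means of 2. Abcc3 is the gene whose MI-2-2 points (159.8 and 143.9) stand clear of the EPZ5676 points (34.4 and 27.3), while the EPZ5676 and MI-2-2 means of the other genes lie close together and apart from DMSO.

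Apart from Abcc3, the family did not separate MI-2-2 from EPZ5676 to the same degree. Log2 differences of the other 34 tested members ran from -1.81 for Abcc8, the regulatory SUR1 subunit of the KATP channel, to 1.08 for Abca1, with a median of 0.0291. In 32 of the 34 members the size was below 1 (94.1%, against 95% of all genes tested), and in 14 the libraries of the inhibitors did not overlap (41.2%, against 39.4%), so that both shares were near those of all genes. Abcc8 had 3.69 and 6.87 normalized CPM with EPZ5676 and 0.954 and 2.04 with MI-2-2, and was thus the member that leaned most towards EPZ5676. Since this contrast chose the family, these values are a description.

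Most ABC genes were low in MAF9 cells. Of the 50 genes, 46 had at least 1 read, and Abca12, Abca15, Abca16 and Abcb5 had none in any library. A total of 35 had enough reads to be tested. The other 11 with reads were Abca4, Abca6, Abca14, Abca17, Abcb4, Abcb11, Abcc6, Abcc9, Abcc12, Abcg5 and Abcg8, with 1 to 54 reads each over all 10 libraries. They include Abcb11, the bile salt pump, and the sterol transporter pair Abcg5 and Abcg8 of liver and gut.

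On a scale that can be compared between genes, normalized CPM per kilobase of exon, Abcf2 was highest with a mean of 54.7 over the 10 libraries, followed by Abca7 (51.1), Abce1 (42.0), Abcf1 (40.3) and Abcd2 (38.0). Abce1, Abcf1 and Abcf2 act in translation, Abca7 moves phospholipids and takes part in phagocytosis, and Abcd2 carries fatty acids into peroxisomes. The order differed between conditions. Abcf2 had the highest mean in DMSO, MM-401 and iBET, where Abca7 stood at rank 4. Abca7 had the highest mean with EPZ5676 (65.1) and MI-2-2 (73.4), with both of its libraries above both of Abcf2 in each. With MI-2-2, Abce1 stood at rank 8 (26.0) and Abca13 at rank 4 (42.1), and in DMSO the libraries of Abcf2 (40.8 and 74.3), Abce1 (47.5 and 63.5) and Abcf1 (32.0 and 56.1) overlapped. Abcf3, another translation factor, varied least, with 1.31-fold between its lowest and highest library, against 115-fold for Abcc3 and 79.2-fold for Abcg3.

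**Figure D2:**
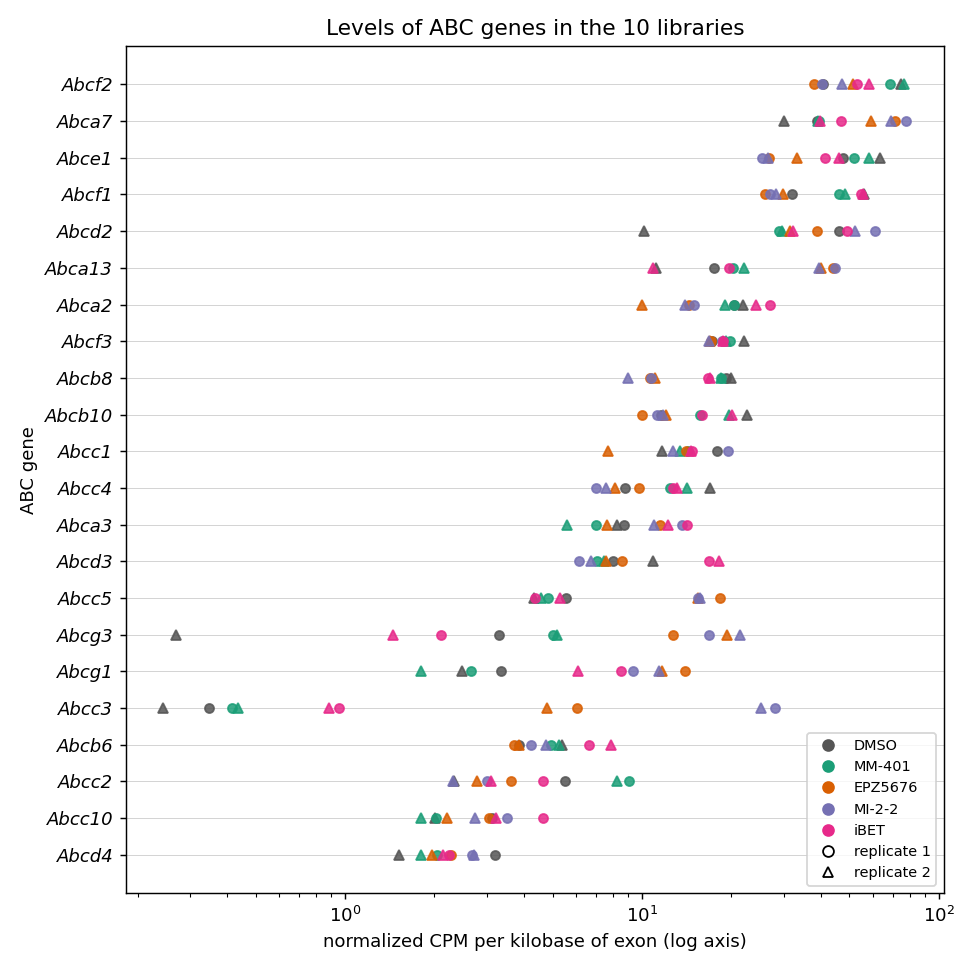
Normalized CPM per kilobase of exon (log axis) in each library for 22 of the 24 ABC genes with a mean of at least 1 on this scale (2 are not shown), ordered by the mean; color marks the condition and shape the replicate. Abcf2, Abca7, Abce1, Abcf1 and Abcd2 lead, and Abcc3 spans from 0.244 in a DMSO library to 28 with MI-2-2.

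EPZ5676 changed 13 of 34 ABC genes relative to DMSO (38.2%, against 38.1% of all genes tested), 9 up and 4 down, where 18.7% of all genes rose and 19.4% fell. MI-2-2 changed 18 of 34 (52.9%, against 41.4%), 11 up and 7 down, where 20.2% rose and 21.2% fell. With EPZ5676 the share was that of all genes. The family median log2 fold change was -0.02 with EPZ5676 and 0.16 with MI-2-2, against -0.06 and -0.05 over all genes. Of 9 tested Abca genes 5 rose with EPZ5676 and 6 with MI-2-2. Of 7 tested Abcb genes none rose with either, and 2 fell with EPZ5676 and 1 with MI-2-2. These counts are small, and a difference between subfamilies was not tested. Calls that held under every alternative were those of Abca8b, Abca9, Abca13, Abcb8, Abcc5, Abcc8 and Abcg1 with EPZ5676, and of Abca9, Abca13, Abcb8, Abcc5, Abce1 and Abcg1 with MI-2-2. The counts depended on single libraries, rising without DMSO replicate 1 and falling without a library of the inhibitor. The share of all genes called moved in the same directions. Without DMSO replicate 2 the MI-2-2 share was no longer above that of all genes, while the EPZ5676 share was above it. The granule markers were higher in all 4 of these inhibitor libraries than in DMSO, and their relation to the ABC gene changes was not tested.

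Among lipid exporters, Abcg1, which loads cholesterol onto HDL, had 24.4 and 18.1 normalized CPM in DMSO, 102 and 85.2 with EPZ5676, and 67.8 and 83.6 with MI-2-2. All 4 inhibitor libraries lay above both DMSO libraries. The fold change was 4.40 with EPZ5676 (log2 2.14, SE 0.263, edgeR FDR = 0.00118) and 3.56 with MI-2-2 (log2 1.83, SE 0.261, edgeR FDR = 0.00175), and both calls held under every alternative tried. Its partner Abca1, which loads cholesterol onto apolipoprotein A-I, was far lower, at 0.0389 and 0.767 in DMSO, 1.79 and 2.07 with EPZ5676, and 4.46 and 3.72 with MI-2-2. With 1 read in DMSO replicate 1 and 16 in DMSO replicate 2, its log2 fold change with MI-2-2 was 3.38 (SE 0.913, edgeR FDR = 0.0200), 2.41 without DMSO replicate 1 and 6.57 without DMSO replicate 2, and the call was lost without either MI-2-2 library. With EPZ5676 the log2 value was 2.30 (edgeR FDR = 0.0780), and without DMSO replicate 2 it passed at 5.48 (edgeR FDR = 0.00407).

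Abca13, one of the largest members of the family and a lipid transporter, was abundant at 346 and 220 normalized CPM in DMSO, 871 and 791 with EPZ5676, and 881 and 782 with MI-2-2. It rose 2.94-fold with each inhibitor (edgeR FDR = 0.00614 and 0.00564, respectively; SE 0.302 on the log2 scale for both). Abca7 had 262 and 204 in DMSO, 481 and 398 with EPZ5676, and 525 and 467 with MI-2-2. It rose 1.89-fold with EPZ5676 (edgeR FDR = 0.00496) and 2.13-fold with MI-2-2 (edgeR FDR = 0.00236). Neither gene overlapped between DMSO and these inhibitors. Abca2, a lipid transporter of endosomes and lysosomes, went the other way, from 170 and 182 in DMSO to 121 and 83.7 with EPZ5676 (log2 -0.79, edgeR FDR = 0.00952) and 125 and 117 with MI-2-2 (log2 -0.55, edgeR FDR = 0.0344). The MI-2-2 call was lost without DMSO replicate 2 (edgeR FDR = 0.120) and without either MI-2-2 library.

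Abca8a, Abca8b, Abca9, Abca6 and Abca5 lie side by side on chromosome 11 on the same strand, and are related lipid transporters whose reads may be shared between copies. Abca9 had 0.506 and 0.383 normalized CPM in DMSO, 4.80 and 3.72 with EPZ5676, and 2.77 and 2.48 with MI-2-2. It rose 9.43-fold with EPZ5676 (log2 3.24, SE 0.410, edgeR FDR = 0.00127) and 5.82-fold with MI-2-2 (log2 2.54, SE 0.405, edgeR FDR = 0.00263), without overlap. Abca8b was counted at 4 and 2 reads in DMSO, 38 and 55 with EPZ5676, and 18 and 117 with MI-2-2. It thus rose 16.7-fold with EPZ5676 (edgeR FDR = 0.00903) and 19.1-fold with MI-2-2 (log2 4.26, edgeR FDR = 0.00681), though the latter log2 value was 2.57 without MI-2-2 replicate 2 and 5.01 without MI-2-2 replicate 1. Abca8a had 2 reads in DMSO against 27 with EPZ5676 and 26 with MI-2-2, ratios of 15.0 (95% counting interval 3.77 to 130) and 12 (3.0 to 104). Both passed (edgeR FDR = 0.0105 and 0.0143), and were lost without EPZ5676 replicate 2 and without MI-2-2 replicate 2, respectively. The EPZ5676 call of Abca8a was also lost with the compared libraries fitted alone. Abca8a and Abca8b had enough reads to be tested only through EPZ5676 and MI-2-2 libraries, where they were high. Their FDR values are therefore not separate support for the increases. Abca5 did not pass with either inhibitor relative to DMSO, and Abca6 had 9 reads with EPZ5676, 3 with MI-2-2, none in DMSO or with MM-401 and 2 with iBET. The cluster was therefore low throughout, and its 3 called members had not more than 4.80 normalized CPM in any library.

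Of the MRP-type exporters other than Abcc3, Abcc5 changed most clearly. Abcc5 (MRP5), an exporter of cyclic nucleotides, had 59.1 and 46.2 normalized CPM in DMSO, 195 and 165 with EPZ5676, and 164 and 168 with MI-2-2. It rose 3.42-fold with EPZ5676 (log2 1.77, SE 0.163, edgeR FDR = 0.000565) and 3.16-fold with MI-2-2 (log2 1.66, SE 0.162, edgeR FDR = 0.000610), did not overlap with DMSO and held under every alternative. Abcc4 (MRP4), which exports cyclic nucleotides as well, did not follow. It had 56.1 and 108 in DMSO, 62.4 and 52.0 with EPZ5676, and 44.6 and 48.4 with MI-2-2, and its call with MI-2-2 (log2 -0.82, edgeR FDR = 0.0412) was lost without DMSO replicate 2 (log2 -0.24) and without either MI-2-2 library. Abcc1 (MRP1), the leukotriene C4 exporter, had 270.1 and 176 in DMSO, 212 and 116 with EPZ5676, and 294 and 193 with MI-2-2, and did not pass with any inhibitor.

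Abcc8 was low but rose with both inhibitors. It had 0.584 and 0.240 normalized CPM in DMSO, and its EPZ5676 libraries lay 12.5-fold above (log2 3.64, SE 0.625, edgeR FDR = 0.00373), with a log2 value of 4.43 without DMSO replicate 1. With MI-2-2 the increase was 3.56-fold (log2 1.83, SE 0.610, edgeR FDR = 0.0430). This call was lost without DMSO replicate 2 (log2 1.40, edgeR FDR = 0.129) and without MI-2-2 replicate 2 (log2 1.18, edgeR FDR = 0.254), and the log2 value was 2.63 without DMSO replicate 1.

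Abcg2 and Abcg3 are related transporters, of which Abcg2 is the breast cancer resistance protein and Abcg3 a rodent gene. Abcg3 had 11.7 and 0.959 normalized CPM in DMSO, 45.2 and 68.8 with EPZ5676, and 59.8 and 75.9 with MI-2-2. The inhibitor libraries were all above DMSO, but the DMSO libraries lay far apart. The log2 fold change of Abcg3 was 3.15 with EPZ5676 (SE 0.835, edgeR FDR = 0.0205) and 3.40 with MI-2-2 (SE 0.842, edgeR FDR = 0.0144). Against DMSO replicate 1 alone it was 2.30 and 2.57 (edgeR FDR = 0.00235 and 0.00159), and against DMSO replicate 2 alone it was 5.89 and 6.14. Both calls were lost without replicate 2 of the inhibitor. Abcg2 had 2.34 and 21.1 in DMSO, 2.72 and 4.89 with EPZ5676, and 1.52 and 2.30 with MI-2-2. Its call with MI-2-2 (log2 -2.61, edgeR FDR = 0.0445) rested on DMSO replicate 2, without which the log2 value was -0.25 (edgeR FDR = 0.697), against -3.45 without DMSO replicate 1, and it was also lost without either MI-2-2 library.

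Mitochondrial ABC genes fell or did not pass. Abcb8, of the inner membrane, had 90.7 and 94.6 normalized CPM in DMSO, 50.5 and 52.3 with EPZ5676, and 50.7 and 42.6 with MI-2-2. The DMSO libraries agreed closely for this gene and lay above all 4 inhibitor libraries. It fell by 0.85 on the log2 scale with EPZ5676 (SE 0.112, edgeR FDR = 0.00146) and by 0.99 with MI-2-2 (SE 0.113, edgeR FDR = 0.000873), under every alternative. Abcb10, which supports heme synthesis, did not pass, and its log2 values of -0.62 with EPZ5676 and -0.57 with MI-2-2 rested on DMSO replicate 2. Without that library they were -0.046 and 0.023, and without DMSO replicate 1 they were -1.02 and -0.96 and passed (edgeR FDR = 0.00387 and 0.00466). Abcb6, a porphyrin transporter, did not pass either (log2 -0.29 and -0.04, and -0.0028 and 0.26 without DMSO replicate 2).

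Abce1, the ribosome recycling factor, had 285 and 381 normalized CPM in DMSO, 160.4 and 201 with EPZ5676, and 153 and 159.6 with MI-2-2. It fell by 0.89 with EPZ5676 on the log2 scale (SE 0.174, edgeR FDR = 0.00644) and by 1.09 with MI-2-2 (SE 0.174, edgeR FDR = 0.00264), with no overlap. Abcf1, an initiation factor partner, had 141 and 247 in DMSO, 114 and 132 with EPZ5676, and 119 and 125 with MI-2-2. Its call with MI-2-2 (log2 -0.67, edgeR FDR = 0.0478) was lost without DMSO replicate 2 (log2 -0.18, edgeR FDR = 0.266) and without either MI-2-2 library. Abcf2 and Abcf3 did not pass with either inhibitor (log2 -0.37 and -0.20 with EPZ5676, -0.40 and -0.14 with MI-2-2), and without DMSO replicate 2 all 4 values were above 0 (0.15 and 0.014 with EPZ5676, 0.13 and 0.085 with MI-2-2). Without DMSO replicate 1 all 4 passed as decreases.

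None of the 4 Abcd genes passed with EPZ5676. Abcd3, which imports branched fatty acids and bile acid precursors, had 52.8 and 72.0 in DMSO and 40.5 and 44.3 with MI-2-2 (log2 -0.56, SE 0.159, edgeR FDR = 0.0253), a call lost without DMSO replicate 2 (log2 -0.28, edgeR FDR = 0.122) and without either MI-2-2 library. Abcd4 did not pass with EPZ5676 (log2 -0.16), and its sign followed the DMSO library, with a log2 value of 0.49 without DMSO replicate 1 (edgeR FDR = 0.0489) and -0.57 without DMSO replicate 2 (edgeR FDR = 0.0311).

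**Figure D3:**
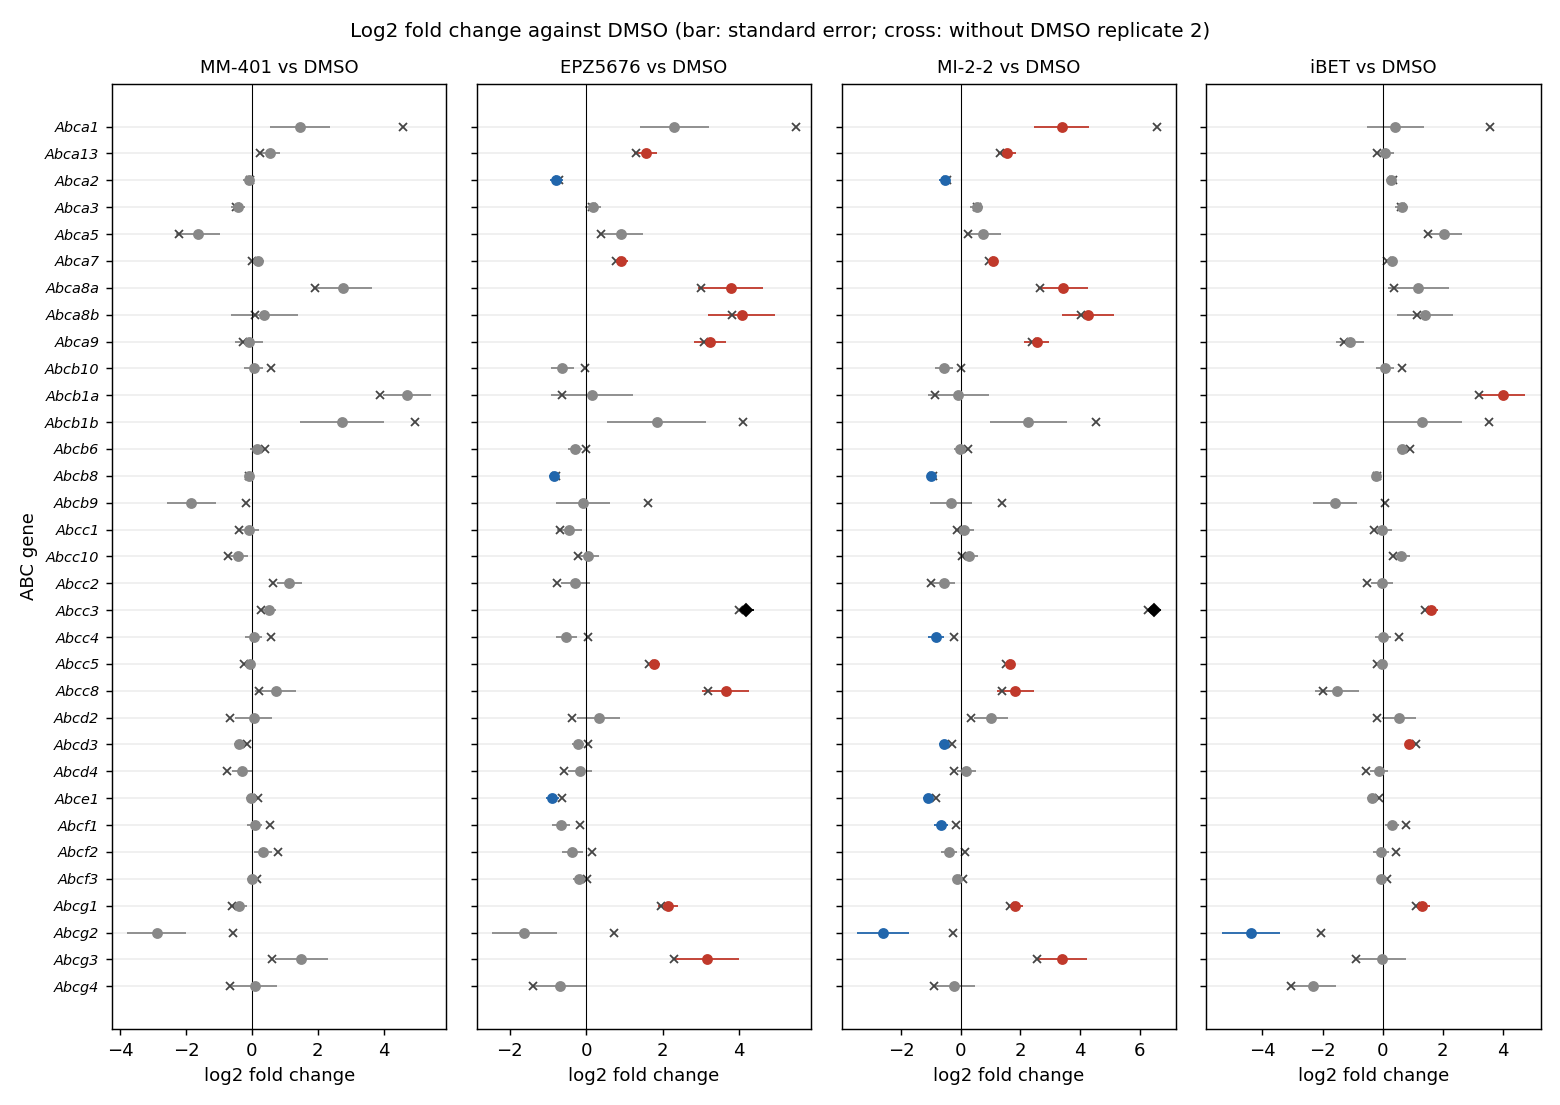
Log2 fold change against DMSO (x axis) of 33 of the 35 tested ABC genes (2 are not shown), with a panel for each inhibitor; bars are standard errors, red marks genes that rose, blue genes that fell, grey genes that did not pass, black diamonds the untested Abcc3 values, and crosses the value without DMSO replicate 2. Abcb8 and Abcc5 keep nearly the same value without that library, while Abca1, Abcg2 and Abcg3 move far from it.

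Promoter windows of 300 bases around annotated starts were taken from RefSeq (GRCm38.p6) and exist for 38 of the 50 genes in 45 windows. The table used here holds none for Abcc3, nor, among others, for Abca6, Abcb8, Abcc1, Abcc6, Abcc8, Abcd2, Abcd4, Abcg1 and Abcg4. Windows are shown for 3 genes that rose and for Abce1, which fell, with both inhibitors. They were searched on both strands for a C/EBP palindrome, a PU.1-type ETS core and a cAMP response element (CRE), and the matches are printed in capitals. These motifs were chosen after the windows had been seen. Abcc5 (chr16:20426345-20426644, minus strand) holds the C/EBP palindrome TTGCGCAA. Abcg3 (chr5:104982668-104982967, minus strand) holds ACTTCCTC, the reverse complement of the PU.1 core GAGGAAGT. Abce1 (chr8:79711691-79711990, minus strand) holds the CRE TGACGTCA, and Abca13 (chr11:9191692-9191991, plus strand) holds no searched motif.
Abcc5: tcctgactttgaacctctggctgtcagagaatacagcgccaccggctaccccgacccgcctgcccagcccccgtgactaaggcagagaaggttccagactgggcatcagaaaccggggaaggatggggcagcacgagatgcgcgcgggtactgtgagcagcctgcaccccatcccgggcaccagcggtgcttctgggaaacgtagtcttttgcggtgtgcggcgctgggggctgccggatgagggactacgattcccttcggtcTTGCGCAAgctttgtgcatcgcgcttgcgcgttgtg
Abcg3: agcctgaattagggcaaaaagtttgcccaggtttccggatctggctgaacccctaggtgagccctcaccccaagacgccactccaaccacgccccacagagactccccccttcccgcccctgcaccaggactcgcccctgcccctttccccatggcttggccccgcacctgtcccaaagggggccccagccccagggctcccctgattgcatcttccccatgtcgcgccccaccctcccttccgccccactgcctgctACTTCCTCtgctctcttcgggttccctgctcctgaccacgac
Abca13: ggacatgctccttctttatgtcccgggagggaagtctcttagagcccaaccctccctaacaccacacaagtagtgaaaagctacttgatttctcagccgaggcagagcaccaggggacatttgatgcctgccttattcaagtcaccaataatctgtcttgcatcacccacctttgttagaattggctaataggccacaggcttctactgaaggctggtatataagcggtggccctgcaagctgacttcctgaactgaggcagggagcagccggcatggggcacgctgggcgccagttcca
Abce1: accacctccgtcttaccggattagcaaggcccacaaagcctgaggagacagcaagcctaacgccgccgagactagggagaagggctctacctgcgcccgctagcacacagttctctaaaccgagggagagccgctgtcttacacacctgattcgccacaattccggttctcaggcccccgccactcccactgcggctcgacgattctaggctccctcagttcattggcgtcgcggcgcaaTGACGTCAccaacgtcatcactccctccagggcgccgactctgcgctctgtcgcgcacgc

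TTGCGCAA occurs in 0.183% of all 32851 RefSeq windows and in no other ABC gene window. GAGGAAGT or its reverse complement occurs in 3.20% of all windows and in 3 ABC genes (Abcc10, Abcg2 and Abcg3), and TGACGTCA in 1.79% and in 2 (Abce1 and Abcg2). An E-box, CACGTG, occurs in 7.15% of all windows and in 6 ABC genes, among them Abca1, Abca8a, Abca8b, Abcc4 and Abcf1, and the ETS core CCGGAAGT in 3.89% and in 2. Matches describe these letters only.

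With iBET, 5 of 34 ABC genes passed relative to DMSO (14.7%, against 13.9% of all genes tested, 6.38% up and 7.54% down), 4 up and 1 down, beside Abcc3. More genes were called without either DMSO library, in the family and among all genes. All 5 calls were lost when either iBET library was left out, where the share of all genes called fell as well. The family median log2 fold change was 0.09, against -0.04 over all genes. Neutrophil granule markers were at 1144 and 488 normalized CPM in the iBET libraries and 3542 and 645 in DMSO. Abcd3 had 111 and 120.04 normalized CPM with iBET against 52.8 and 72.0 in DMSO, above every other library of the study. It rose 1.85-fold (log2 0.89, SE 0.159, edgeR FDR = 0.0130), and without DMSO replicate 2 the log2 value was 1.12 (edgeR FDR = 0.00317).

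Abcg1 had 62.0 and 44.5 normalized CPM with iBET and rose 2.50-fold (log2 1.32, SE 0.258, edgeR FDR = 0.0170; without DMSO replicate 2, log2 1.12, edgeR FDR = 0.0360). Abcg2 was lowest with iBET, at 0.619 and 0.497. Its log2 fold change was -4.38 (SE 0.978, edgeR FDR = 0.0257), -5.23 without DMSO replicate 1, and -2.06 without DMSO replicate 2 (edgeR FDR = 0.0266), so that the direction and the call held but the size rested on that library. Abcb1a, which together with Abcb1b encodes P-glycoprotein, the classical multidrug efflux pump, was counted at 16 and 21 reads with iBET against 2 and 0 in DMSO. The ratio was 17.7 (95% counting interval 4.55 to 151) and passed (edgeR FDR = 0.0147). Abcb1a had enough reads to be tested only through the MM-401 and iBET libraries, so its FDR is not separate support for the increase. The fitted log2 value was 4.00, and it was 3.19 without DMSO replicate 2 (edgeR FDR = 0.0159) and 7.15 without DMSO replicate 1, where no read remained in DMSO. Abcb1a and Abcb1b are neighbouring close copies, and how shared reads were assigned is not given in the sources used here.

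**Figure D4:**
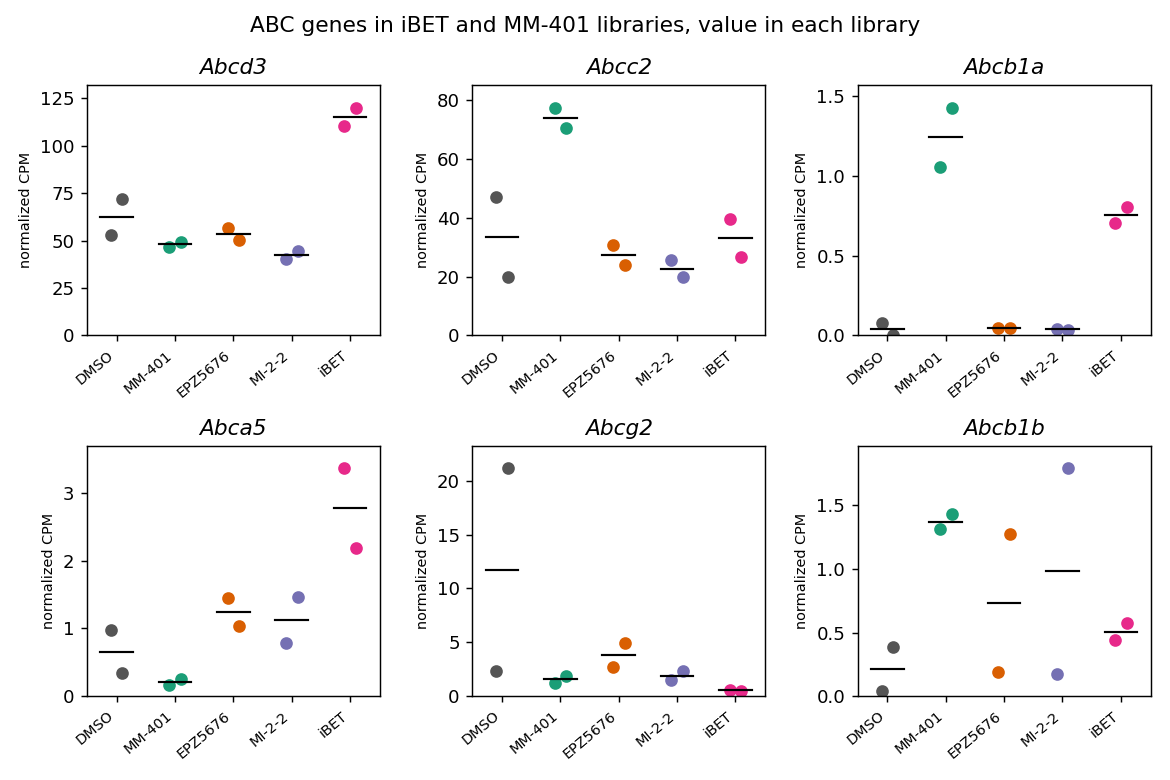
Normalized CPM (linear axes from 0) of Abcd3, Abcc2, Abcb1a, Abca5, Abcg2 and Abcb1b in each library, by condition; points are libraries and bars are means of 2. Abcd3 stands at 111 and 120.04 with iBET, above all other libraries, Abcb1a is near 0 except with MM-401 and iBET, and DMSO replicate 2 carries the high Abcg2 value of 21.1.

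MM-401 changed no ABC gene relative to DMSO in edgeR (0 of 34, against 0% of all genes tested), with 7 at an unadjusted p below 0.05, and DESeq2 called 2. Leaving out DMSO replicate 1 gave calls in the family and among all genes. Leaving out DMSO replicate 2 or either MM-401 library gave none in the family or among all genes. The smallest adjusted p, 0.223, was that of Abcb1a, with 25 and 34 reads against 2 and 0 in DMSO (ratio 28.9, 95% counting interval 7.66 to 244). Abcc2 (MRP2), an exporter of conjugated anions, had 77.3 and 70.5 normalized CPM with MM-401 against 46.9 and 19.9 in DMSO (log2 1.14, edgeR FDR = 0.348), which became 1.90 without DMSO replicate 1 (edgeR FDR = 0.00999) and 0.64 without DMSO replicate 2 (edgeR FDR = 0.229).

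The MM-401 libraries differed little from each other, and took the place of DMSO in a further comparison of the other inhibitors. This comparison shares the inhibitor libraries with those above and is not a repeat of them. All 10 libraries were in the fit, so the DMSO libraries still entered its estimate of the spread. Of 34 ABC genes 15 passed between EPZ5676 and MM-401 (44.1%, against 33.3% of all genes), 8 up and 7 down, and 15 between MI-2-2 and MM-401 (44.1%, against 35.7%), also 8 up and 7 down. Without any 1 library both counts were lower, and so was the share of all genes called. Abcg1, Abcc5 and Abca9 were higher in both, by log2 2.52, 1.84 and 3.32 for EPZ5676 (edgeR FDR = 0.00112, 0.000701 and 0.00165) and 2.22, 1.73 and 2.63 for MI-2-2 (edgeR FDR = 0.00160, 0.000939 and 0.00324). Abcb8 was lower in both, with log2 -0.76 (edgeR FDR = 0.00282) and -0.90 (edgeR FDR = 0.00180). These 8 calls were not lost under any alternative.

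Abcb1a and Abcc2 were higher with MM-401 than with EPZ5676 or MI-2-2. Abcb1a had 59 reads with MM-401 against 2 with EPZ5676 and 2 with MI-2-2, ratios of 26.0 (95% counting interval 6.89 to 219.9; edgeR FDR = 0.00381) and 31.4 (8.30 to 265; edgeR FDR = 0.00304), without overlap. Since this gene was tested only through the MM-401 and iBET libraries, these FDR values are not separate support either. Abcc2 was at 30.8 and 23.8 normalized CPM with EPZ5676 and 25.7 and 19.7 with MI-2-2, below both MM-401 libraries (log2 -1.44, edgeR FDR = 0.0242; log2 -1.70, edgeR FDR = 0.0124). The EPZ5676 call of Abcc2 was lost without any 1 of the 4 libraries, and the MI-2-2 call without either MM-401 library or MI-2-2 replicate 2. Abca5, a lysosomal lipid transporter, had 0.169 and 0.252 with MM-401, 1.46 and 1.04 with EPZ5676, 0.780 and 1.46 with MI-2-2, and 3.36 and 2.18 with iBET. It was higher than with MM-401 by log2 2.53, 2.39 and 3.68 (edgeR FDR = 0.0207, 0.0237 and 0.0131), and each call was lost without either MM-401 library. The EPZ5676 and iBET calls were also lost without either library of the inhibitor, and the MI-2-2 call without MI-2-2 replicate 2.

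Between iBET and MM-401, 4 of 34 ABC genes passed beside Abcc3, all higher with iBET (11.8%, against 11.4% of all genes in either direction, 5.48% higher and 5.96% lower). They were Abca5, Abcg1, Abcd3 and Abca3. Other fits also called genes lower with iBET. With the 4 compared libraries fitted alone, 16 passed, 8 higher and 8 lower, where 35% of all genes were called. The replicate block called 8, 2 of them lower (19% of all genes), and DESeq2 called 7, 2 of them lower (17%). Abcd3 was 2.40-fold higher (log2 1.27, SE 0.161, edgeR FDR = 0.00479) and was the 1 call that no alternative removed. Abcg1 was 3.27-fold higher (edgeR FDR = 0.00836), a call lost without MM-401 replicate 2 and without iBET replicate 1. Abca3, the surfactant lipid transporter of lamellar bodies, had 65.8 and 52.3 normalized CPM with MM-401 and 133 and 115 with iBET (log2 1.07, edgeR FDR = 0.0209), and its call was lost without any 1 of the 4 libraries.

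**Figure D5:**
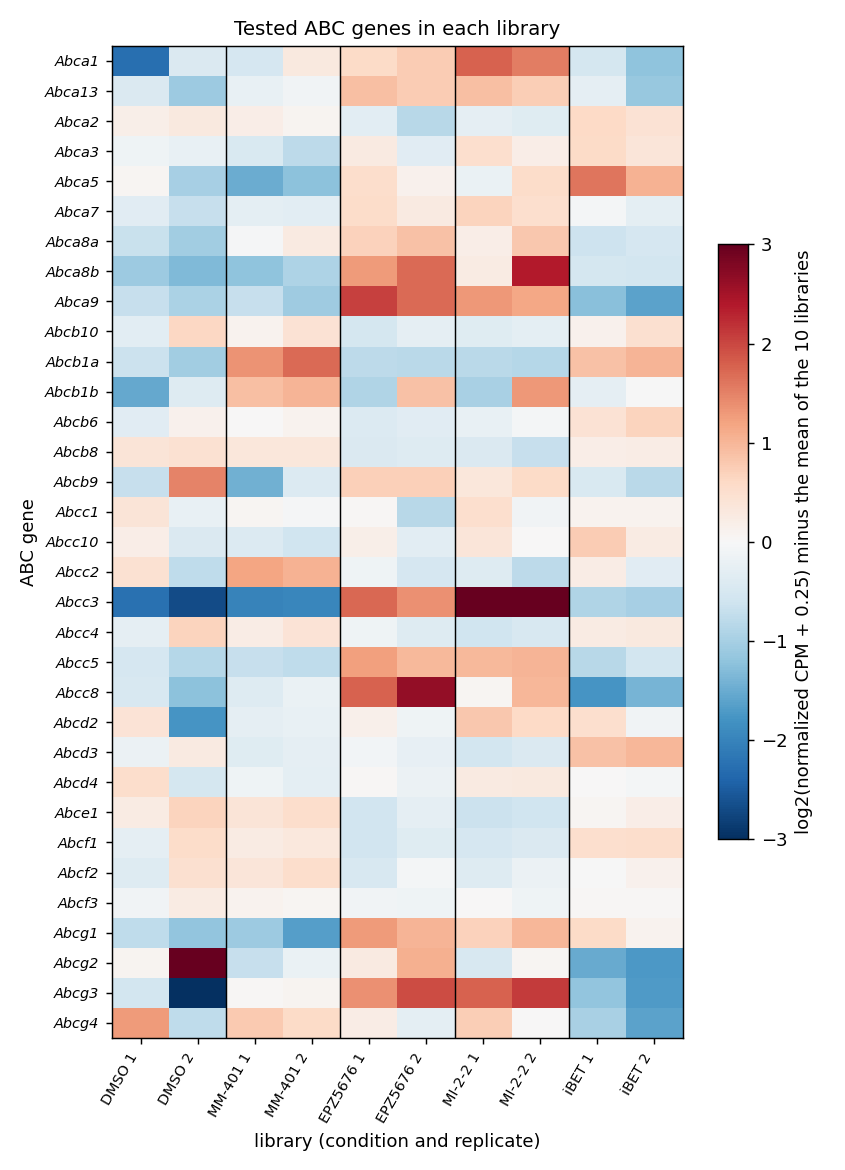
Log2(normalized CPM + 0.25) minus the mean of the 10 libraries (color, -3 to 3) for 33 of the 35 tested ABC genes (2 are not shown) in each library. Abcc3 is at the upper end of the scale with MI-2-2, Abca9, Abcc5, Abcg1 and Abcg3 are high with EPZ5676 and MI-2-2, and Abcg2 and Abcg3 part DMSO replicate 2 from DMSO replicate 1.

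Genes that work with ABC transporters were listed by pathway. Of 14 tested sterol efflux and LXR genes, 2 passed with EPZ5676 (14.3%, against 38.1% of all genes tested) and 4 with MI-2-2 (28.6%, against 41.4%), both below the share of all genes. With iBET 0 passed, where 5 were at an unadjusted p below 0.05 and DESeq2 called 4. Nr1h3, the receptor LXR-alpha that activates Abca1 and Abcg1, rose with EPZ5676 from 1.17 and 0.575 to 3.30 and 3.39 normalized CPM (log2 1.92, edgeR FDR = 0.00889). Apoe, an acceptor of exported cholesterol, fell from 9.69 and 24.8 to 3.69 and 5.22 (log2 -1.95, edgeR FDR = 0.0101). Without DMSO replicate 2 both still passed (log2 1.54 and -1.10). Nr1h2, which encodes LXR-beta, was far higher than Nr1h3, at 143 and 78.2 in DMSO and 168 and 173 with EPZ5676. It did not pass (log2 0.62, edgeR FDR = 0.0841), and its log2 value was 0.27 without DMSO replicate 2. The median log2 fold change of this list was 0.03 with each of EPZ5676 and MI-2-2 and 0.06 with iBET.

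Of 23 tested genes of glutathione conjugation and the NRF2 response, only some of which make substrates of MRP exporters, 13 passed with EPZ5676 (9 up), 13 with MI-2-2 (10 up) and 4 with iBET (2 up). These were 56.5%, 56.5% and 17.4% of the list, against 38.1%, 41.4% and 13.9% of all genes tested. Over all genes, 18.7%, 20.2% and 6.38% rose. Alox5, which begins leukotriene synthesis, rose with EPZ5676 from 141 and 9.44 to 614 and 534 normalized CPM (log2 2.93, edgeR FDR = 0.0490), and by log2 2.05 without DMSO replicate 2. The quinone reductase gene Nqo1 rose by log2 2.90 (edgeR FDR = 0.0295) and by 2.09 without that library, and Ggt5, a gamma-glutamyl transferase that acts on leukotriene C4, by 2.53 (edgeR FDR = 0.0235) and 1.76. The 4 genes that fell with EPZ5676 were Gss, Gstm1, Gsto1 and Gstt2 (log2 -1.10, -1.10, -0.75 and -1.34). Without DMSO replicate 2 the value of Gsto1 was -0.41. Gstm1, Gsto1 and Gstt2 also fell with MI-2-2. Among the 4 genes called with iBET the largest changes were those of Ggt1 (log2 -2.44), Gstt2 (-2.06) and Gclc (0.92), a subunit of the enzyme that limits glutathione synthesis. The median log2 fold change of the list was 0.10 with EPZ5676, 0.11 for MI-2-2 and 0.01 for iBET.

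Of 19 tested genes of heme synthesis and mitochondrial iron, 7 passed with EPZ5676 (6 down), 6 with MI-2-2 (5 down) and 2 with iBET (both down), with median log2 values of -0.29, -0.32 and -0.07. The shares called in either direction were 36.8%, 31.6% and 10.5%, each below that of all genes tested (38.1%, 41.4% and 13.9%). The genes called down alone were 6, 5 and 2 of 19, where 19.4%, 21.2% and 7.54% of all genes fell. These counts are small, and a difference from all genes was not tested. Cpox, which makes protoporphyrinogen, fell with EPZ5676 from 60.3 and 51.7 to 30.0 and 21.3 normalized CPM (log2 -1.13, edgeR FDR = 0.00367), and Alas1, the first enzyme of the pathway, fell with iBET from 593 and 452 to 255 and 240.04 (log2 -1.08, edgeR FDR = 0.0132). Alad (-0.96) passed with EPZ5676 but not without DMSO replicate 2 (log2 -0.53). The list of peroxisomal partner genes also held Lmbrd1 and Mmachc, which are not peroxisomal. Of its 17 tested genes, 9 passed with EPZ5676 (5 up), 10 with MI-2-2 (7 up) and 2 with iBET (1 up), with median log2 values of 0.20, 0.22 and 0.25. Lmbrd1 (up) and Mmachc (down) were among the calls with EPZ5676 and MI-2-2, and Mmachc was among those with iBET. The shares called were 52.9%, 58.8% and 11.8%, against the same 38.1%, 41.4% and 13.9% of all genes. Over all genes, 18.7%, 20.2% and 6.38% rose. Acox3, an acyl-CoA oxidase, rose with EPZ5676 from 72.1 and 28.1 to 191 and 212 (log2 2.01, edgeR FDR = 0.00462). Mmachc, which processes cobalamin, fell with EPZ5676 (log2 -1.65, edgeR FDR = 0.00282) and iBET (log2 -1.14, edgeR FDR = 0.0274), while Acsl1, an acyl-CoA synthetase, rose with EPZ5676 (log2 1.62, edgeR FDR = 0.00228).

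Of 15 tested genes of ribosome recycling and translation, the partners of Abce1, 7 passed with EPZ5676 and 8 with MI-2-2, beside 1 for iBET, all of them down, with median log2 values of -0.45, -0.58 and -0.15. The shares called, all of which fell, were 46.7%, 53.3% and 6.67%. Over all genes tested, 38.1%, 41.4% and 13.9% were called in either direction, and 19.4%, 21.2% and 7.54% fell. Pelo, which with Hbs1l and Abce1 rescues stalled ribosomes, fell with EPZ5676 from 26.9 and 35.4 to 18.0 and 15.2 normalized CPM (log2 -0.91, edgeR FDR = 0.00942) and with iBET (log2 -0.81, edgeR FDR = 0.0338), the latter not without DMSO replicate 2 (edgeR FDR = 0.0607). The release factor gene Gspt1 fell by 0.86 (edgeR FDR = 0.00707) and Gcn1l1, a sensor of stalled ribosomes, by 0.75 (edgeR FDR = 0.0174) with EPZ5676 on the log2 scale, the latter not without DMSO replicate 2 (edgeR FDR = 0.0573). Leaving out 1 of the 4 libraries of a comparison moved the count of every list with EPZ5676, MI-2-2 and iBET. The share of all genes called moved in these fits too. With MM-401 none of the 88 genes of these 5 lists passed in edgeR, 5 were at an unadjusted p below 0.05, and DESeq2 called 2.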

How the data were processed

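Libraries of 5 conditions, 2 each, were assigned from their labels. The authors deposited raw read counts for 24015 gene symbols, without normalization, and their processing notes name TopHat2, Subread and DESeq with build mm9. Whether counting used strand is not given in the sources used here.

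Counts were analysed with edgeR 4.0.16 under R 4.3.3, by its quasi-likelihood test after filterByExpr and TMM, fitting the 10 libraries jointly. P-values of the 12971 genes kept were adjusted by the Benjamini-Hochberg method (threshold 0.05). SE is the log2 fold change over the square root of F. Alternatives were DESeq2 1.42.0, other scalings and filters (at least 1 CPM in at least 2 libraries, or none), a replicate block, separate fits and leaving out each library. Simulated counts served to check the fit. Exon lengths came from GENCODE M21, which held all 50 symbols. Ratios on 1 to 3 reads have exact 95% intervals, which cover counting error only.

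The family, lists and tests were chosen with earlier results of these data known. Named were Abcc3, up to 8 called members per comparison with at least 1 normalized CPM in the higher group, the 5 highest per kilobase, members without reads, and up to 3 called genes of each partner list with EPZ5676 or iBET. Other members named were chosen after their values were seen. Some genes picked by this rule are not reported here.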

Additional observations from a re-analysis of the deposited data

How the results depend on the processing

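None of the 72 calls of single ABC genes changed sign under the alternatives run. Of the 169 values that were not called, 64 changed sign under 101 alternatives, 87 of which left out 1 library, and 2 passed with the other sign. Without 1 library, Abcd4 with EPZ5676 against DMSO ran from -0.57 to 0.49 and Abcg3 with iBET against DMSO from -0.90 to 2.71 on the log2 scale, each highest without DMSO replicate 1. Of the alternatives for single genes, 143 lost and 115 gained a call in the same direction. With the replicate block, 10 genes were called for iBET against DMSO (5 without it) and 8, 2 of them down, against MM-401 (4 without it). The other counts stayed within 1.5 times (16 for EPZ5676 and 20 for MI-2-2 against DMSO, 19 and 20 against MM-401, 0 for MM-401). Of all genes the block called 23.8% for iBET against DMSO and 19% against MM-401. For EPZ5676 and MI-2-2 it called 47.6% and 50.6% of all genes against DMSO, and 43.4% and 46% against MM-401. The replicate numbers are only names in the labels, with 2 per condition, and deviations of same-numbered libraries correlated at 0.303 to 0.704 across 12971 genes. With the 4 compared libraries fitted alone, 7 genes (EPZ5676, 9.34% of all genes), 6 (MI-2-2, 9.12%) and 0 (iBET, 0%) were called against DMSO. Against MM-401 the counts were 22 (EPZ5676, 45.6%), 24 (MI-2-2, 51.4%) and 16 (iBET, 35%). DESeq2 called 2 for MM-401 (2.26% of all genes) and 8 for iBET (20.5%) against DMSO, and 7 for iBET against MM-401 (17%). Without 1 library the counts ran from 0 to 7 for MM-401, 10 to 25 (EPZ5676), 8 to 24 (MI-2-2) and 0 to 11 (iBET) against DMSO, and from 5 to 9, 6 to 10 and 1 to 2 for EPZ5676, MI-2-2 and iBET against MM-401. These fits hold fewer libraries, the share of all genes called moved in them too, and the cause was not tested. Total-count scaling moved the median of all genes to -0.23 for EPZ5676 and -0.21 for MI-2-2 against DMSO, and to -0.14 and -0.11 against MM-401, with 7 ABC genes up and 10 down for EPZ5676 against MM-401 in place of 8 and 7. Of the partner list counts, 157 alternatives stayed within 1.5 times and 63 did not. With 2 libraries per condition, genes with few reads, such as Abca8a and Abcb1a, are limited by depth.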
